A study of Mus musculus with 6 samples.

Results

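DNase I hypersensitive sites at 4 circadian clock loci, Per1, Per2, Dbp and Nr1d1, were compared between livers of fasted and fed C57BL/6 mice, a common inbred strain. The enzyme DNase I cuts accessible DNA, and a hotspot is a stretch with a local excess of sequenced cuts, as at promoters and enhancers. The loci were defined by position in mm9, with a window of 90 kb on chromosome 11 for Per1, 150 kb on chromosome 1 for Per2, 60 kb on chromosome 7 for Dbp and 70 kb on chromosome 11 for Nr1d1. Whether each window holds the gene it is named for was not checked against an mm9 annotation. Hotspots of all 6 libraries that overlapped by at least 1 bp were merged, and every merged region overlapping a window was a member. This gave 42 of the 75169 regions of the series, 16 in the Per1 window, 7 in the Per2 window, 7 in the Dbp window and 12 in the Nr1d1 window. Regions are numbered along the chromosome within each window.

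The groups were 3 libraries from mice fasted for 24 h and 3 from mice fed ad libitum. All mice were kept on a light-dark cycle of 12 h with lights on at 6:00, and every liver was taken at 6:00. Both groups were therefore sampled at a single hour of the day, and these 6 libraries hold no other hour. Whether the libraries of a group came from different animals is not in the labels. The p-values therefore describe the variation among these libraries alone, some of which may be technical. The labels give no genetic change for either group. Fasted libraries held 49682, 63476 and 50620 hotspots and fed libraries 51609, 50990 and 63105. Relative depth, taken from the step between the deposited densities, was highest in fasted replicate 2 (1.90 times that of fed replicate 2, the shallowest) and fed replicate 3 (1.64 times).

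The mammalian clock is a feedback loop of transcription. The activators BMAL1 and CLOCK bind E-box elements in the genes of their own repressors, among them Per1 and Per2, and in Nr1d1 and Dbp. PER1 and PER2 act with the CRY proteins to repress the activators. Nr1d1 encodes REV-ERBα, a nuclear receptor that represses Bmal1 and many metabolic genes in liver. DBP is a PAR bZIP activator that binds D-box elements in output genes, including some of drug metabolism. In liver the loop takes cues from feeding as well as from the central clock in the brain, and Per1 is also a target of glucocorticoid and cAMP signalling.

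Promoter sequences are shown for the genes that have one in the RefSeq table, to set out the DNA elements these genes are known for. Of the 4 genes, 3 had an entry, with 2 starts for Per1. Each sequence runs 5′ to 3′ from 250 bases before to 50 bases after the start, with coordinates in GRCm38.p6. That build numbers positions differently from mm9, so the sequences were not placed on the hotspot regions. Capitals mark a match to any of the motifs searched.
Per1 upstream start, chr11:69098699-69098998, plus strand: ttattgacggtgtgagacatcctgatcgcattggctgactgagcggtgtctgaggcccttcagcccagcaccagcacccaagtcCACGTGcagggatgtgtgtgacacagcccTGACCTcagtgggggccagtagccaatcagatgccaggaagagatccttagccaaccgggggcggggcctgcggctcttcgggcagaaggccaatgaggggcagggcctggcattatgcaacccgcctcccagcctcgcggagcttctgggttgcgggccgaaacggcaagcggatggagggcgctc
Per1 downstream start, chr11:69099902-69100201, plus strand: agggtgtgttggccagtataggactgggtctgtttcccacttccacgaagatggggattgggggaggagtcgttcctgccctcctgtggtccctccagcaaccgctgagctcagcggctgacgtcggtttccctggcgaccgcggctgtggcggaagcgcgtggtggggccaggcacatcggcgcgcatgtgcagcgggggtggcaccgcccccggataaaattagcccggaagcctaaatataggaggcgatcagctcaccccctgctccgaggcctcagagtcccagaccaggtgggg
Dbp, chr7:45704997-45705296, plus strand: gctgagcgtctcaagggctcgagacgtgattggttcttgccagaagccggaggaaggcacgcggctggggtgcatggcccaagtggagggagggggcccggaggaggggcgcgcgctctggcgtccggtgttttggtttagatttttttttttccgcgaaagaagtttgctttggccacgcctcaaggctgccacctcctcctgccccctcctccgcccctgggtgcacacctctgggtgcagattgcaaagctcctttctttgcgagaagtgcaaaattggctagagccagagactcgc
Nr1d1, chr11:98775328-98775627, minus strand: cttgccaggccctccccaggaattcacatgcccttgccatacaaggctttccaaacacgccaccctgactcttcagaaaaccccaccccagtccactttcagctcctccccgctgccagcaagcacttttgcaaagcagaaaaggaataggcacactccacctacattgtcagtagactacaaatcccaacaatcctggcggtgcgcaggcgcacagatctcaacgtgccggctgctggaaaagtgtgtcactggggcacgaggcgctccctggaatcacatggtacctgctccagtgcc

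The motifs searched on both strands were the E-box CACGTG, the D-boxes TTATGTAA and TTACGTAA, the cAMP response element TGACGTCA, the palindromic consensus of the glucocorticoid response element, the nuclear receptor core motif AGGTCA and the forkhead motif TGTTTAC. Only the sequence at the upstream Per1 start held any. It had 1 E-box, whose first base lies 166 bases before the start, and 1 AGGTCA on the opposite strand, 137 bases before the start, with no overlap between them. Of all 32851 RefSeq mouse promoters of this length, 7.15% held CACGTG and 16.3% held AGGTCA. Among 16 further clock genes, 14 had a promoter, and CACGTG was found in those of 4: Cry1, a partner of the PER proteins, Tef, a PAR bZIP relative of Dbp, and Bhlhe41 and Ciart, repressors of the loop. AGGTCA was found in those of Arntl (which encodes BMAL1), Clock, Nfil3 (a repressor at D-boxes) and Nr1d2 (a paralogue of Nr1d1). TTATGTAA was found in that of Per3 alone among the 14, against 0.938% of all promoters. TGACGTCA was found for Hlf (1.79% of all promoters) and TGTTTAC for Cry1 (3.65%). A gene was counted if any of its promoters held the motif, whereas the percentages are of single promoters, so the 2 are not like measures. These matches describe letters in a window and say nothing of binding.

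The windows may hold other genes as well. In the RefSeq gene order, Per1 lies between Vamp2 and Hes7, Per2 between Hes6 and Traf3ip1, Dbp between Car11 and Sphk2, and Nr1d1 between Thra and Msl1. This order gives no mm9 positions, so it does not show which genes lie in a window. No mm9 annotation was used, so a region is described by its window and position and was not assigned to a gene or a start site. For the same reason the other clock loci, and marker loci of liver and of other cell types, were not analysed here. In whole liver, a change of accessibility within cells and a change in the share of a cell type cannot be told apart.

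Of the 26 tested regions at these loci, 2 passed the threshold between fasted and fed livers. Of the 42 members, 26 (61.9%) were called in all 6 libraries, against 49.3% of all regions of the series, and these 26 shared members could be tested. In the limma fit over all 37044 shared regions, 2 members rose in fasted livers (7.69% of the 26) and 0 fell, against 15.7% of all shared regions that changed, 7.89% higher and 7.84% lower. Both that rose lie in the Per1 window. At an unadjusted p under 0.05 there were 5 members higher and 1 lower, against 14.6% of all shared regions higher and 13.1% lower. A member's density here is its highest maximum tag density in a library, and fold changes are fasted minus fed on log2(density + 1), with the median of the shared regions subtracted in each library, and they understate changes at weak regions. Without centring, 1 member rose, and of all changed regions 37.9% were higher in fasted livers (1946 regions, against 3189 lower), in place of 50.1%.

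**Figure D1:**
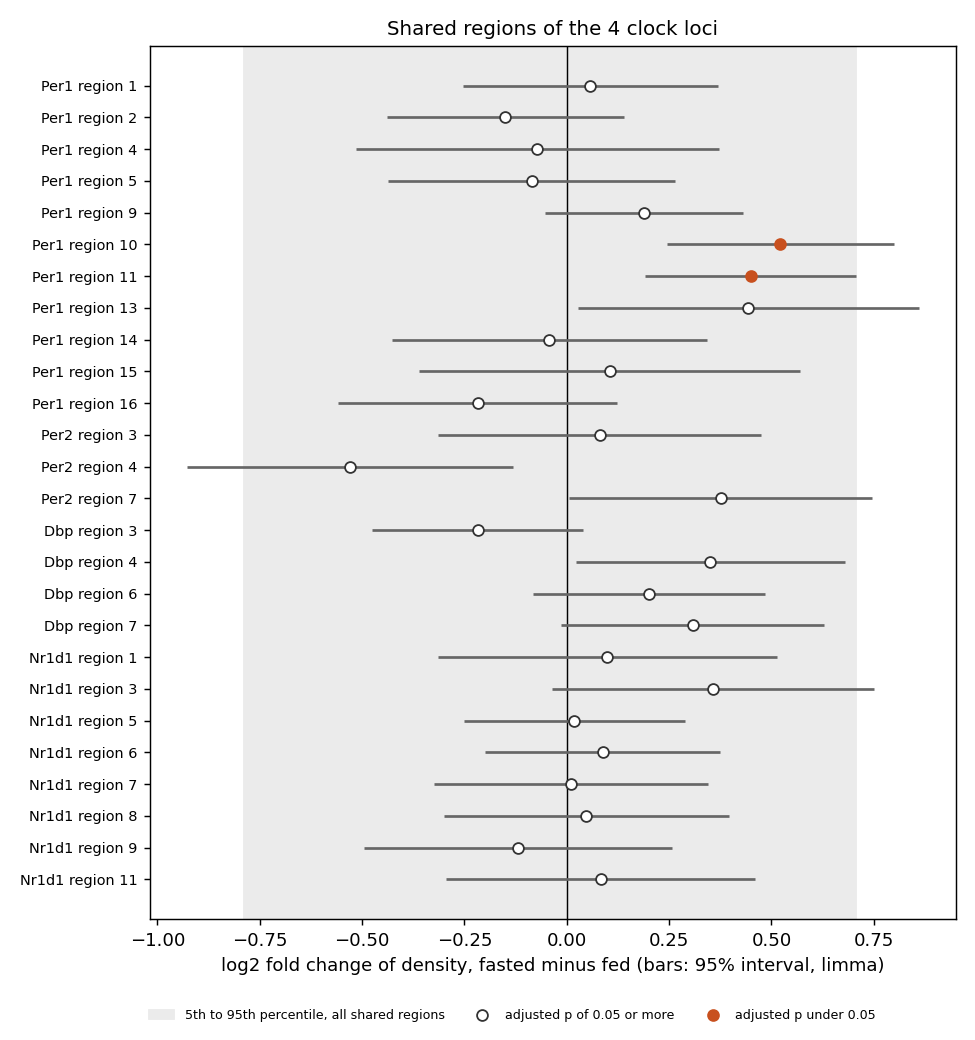
Log2 fold change of maximum tag density (horizontal axis, fasted minus fed) of the 26 shared regions, with 95% intervals from limma and filled points where the adjusted p was under 0.05. Regions 10 and 11 of the Per1 window are filled, at 0.52 and 0.45, and the grey band spans the 5th to 95th percentile of all shared regions, -0.79 to 0.71.

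The fold changes of the shared members were small. The greatest in size was 0.53, a lower value in fasted livers, and all 26 intervals lay between -1 and 1 on the log2 scale. The median over the 26 was 0.08, beside 0.03 over all shared regions, and 18 of them (69.2%) were above 0, beside 54.2% of all shared regions. Centred densities did not overlap between the groups at 9 members, 6 higher and 3 lower in fasted livers. That is 34.6% of the 26, near the 31.4% of all shared regions (16.8% higher and 14.6% lower). The shared members were strong sites, with 24 of 26 above the median density of shared regions and 7 in the top 10%. The values over all shared regions are therefore not those of regions of like density. When only the upper 50% by density were tested, 2 of 24 members were higher and 1 lower. Over the 18522 regions of that fit, 1401 were higher and 1540 lower. The median width of the shared members was 1426.5 bp, beside 1054 bp over all shared regions.

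**Figure D2:**
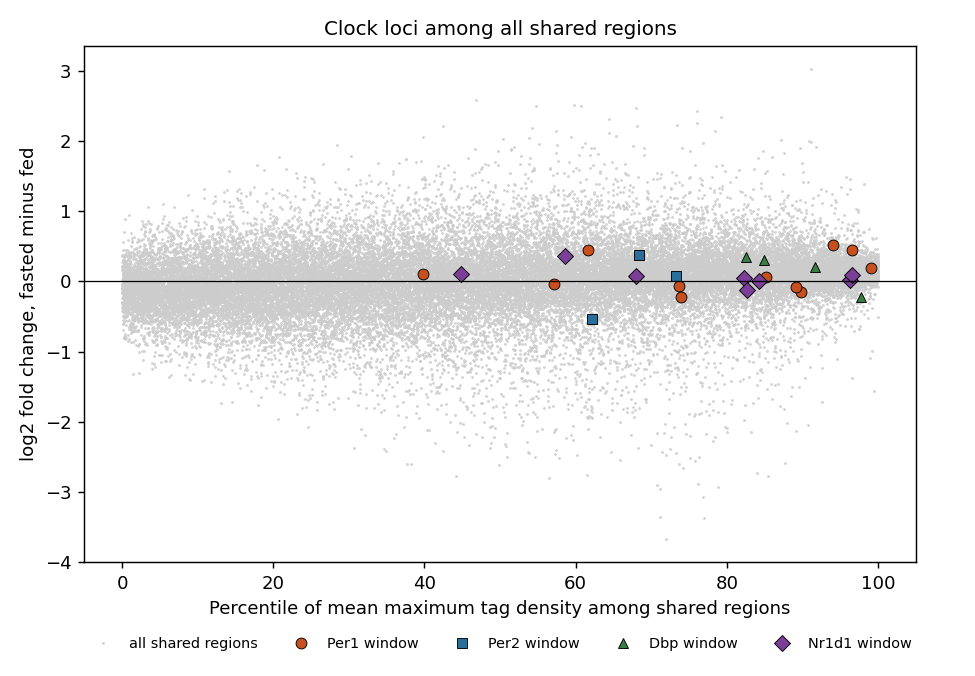
Log2 fold change (vertical axis, fasted minus fed) against the percentile of mean density among all shared regions, with members of the 4 windows as large symbols over all shared regions in grey. The members lie at the right, with 24 of 26 above the 50th percentile, and close to the zero line.

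Per1 encodes a repressor of the loop. Its window held 11 of the 26 shared members, the most of any window, and the only members that passed the test. The strongest member, region 9 (chr11:68907830-68909621), stood at percentile 99.1 of density among shared regions and is followed by regions 10 and 11 within a stretch of 5979 bp. Region 9 had densities of 180.4, 161 and 213 in fasted livers (replicates 1 to 3), against 199, 150.3 and 161 in fed livers. The groups overlapped. The log2 fold change was 0.19 (SE 0.12, 95% interval -0.05 to 0.43, limma adjusted p = 0.315).

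Region 10 (chr11:68909861-68911365), which begins 239 bp beyond region 9, had densities of 124, 123 and 116 in fasted livers, against 91.9, 91.8 and 81.2 in fed livers. Every fasted library stood above every fed one. The means were 121 ± 4.29 in fasted and 88.3 ± 6.13 in fed livers (SD, n = 3 each). The log2 fold change was 0.52 (SE 0.13, limma adjusted p = 0.00985), at percentile 90.4 of the fold changes of all shared regions. It did not pass with average in place of maximum density (log2 fold change 0.30, adjusted p = 0.148) or without the mean-variance trend (adjusted p = 0.0563, limma).

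Region 11 (chr11:68911845-68913808) lies 479 bp further on and had densities of 148, 140.1 and 142 in fasted livers, against 122, 102 and 107 in fed livers. Again the groups did not overlap. Means were 143 ± 4.07 in fasted and 110.3 ± 10.2 in fed livers (SD, n = 3 each), with a log2 fold change of 0.45 (SE 0.12, limma adjusted p = 0.0155). This call was less stable than that of region 10. It was lost without fasted replicate 1 (adjusted p = 0.0675) and without fed replicate 2 (adjusted p = 0.0832), and under 5 other settings, with limma adjusted p between 0.0579 and 0.0928. The log2 fold change stayed between 0.32 and 0.51 in all settings that held the region.

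The length of DNA covered by hotspots was greater at both regions in every fasted library than in any fed one. This length comes from the same hotspots as the densities and is not separate evidence. How often such lengths separate the groups over all shared regions was not computed. At region 10, with 1 hotspot in each library, it was 1505, 1500 and 1470 bp in fasted libraries, against 1070, 1068 and 1322 bp in fed libraries. At region 11 it was 1632, 1949 and 1669 bp in fasted libraries, against 867, 888 and 1604 bp in fed libraries. There fasted replicates 1 and 3 and fed replicate 3 each had 2 hotspots, whose lengths are added, and the other libraries had 1. The greatest length at each region in the fed group came from fed replicate 3, the deepest fed library, and the part of depth in these lengths was not tested. At region 9, which did not pass, it was 1757, 1775 and 1309 bp in fasted libraries, against 1257, 1111 and 1792 bp in fed libraries, and there the groups overlapped.

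**Figure D3:**
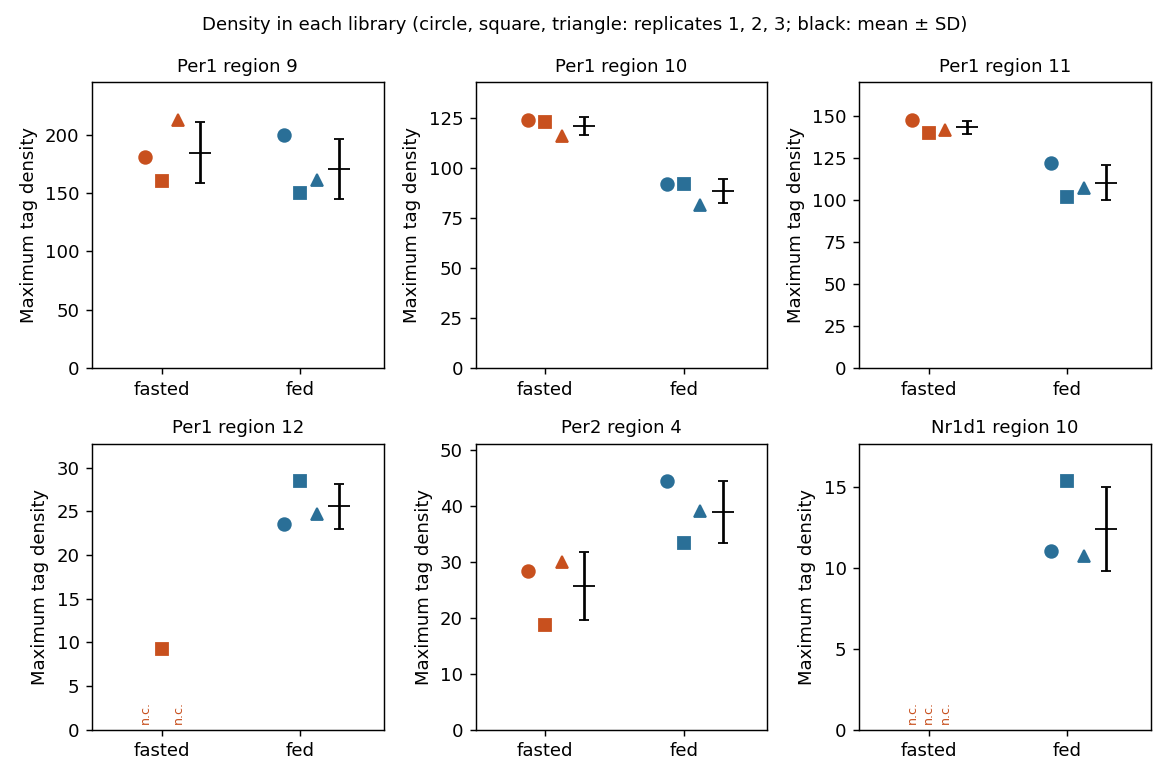
Maximum tag density (vertical axis, from 0) in each fasted and fed library at 6 regions, with black bars for mean ± SD where all 3 libraries of a group called the region and n.c. for a library that did not call it. Fasted libraries lie above fed ones at Per1 regions 10 and 11 (116 to 124 against 81.2 to 91.9 at region 10), and fed libraries above fasted ones at Per2 region 4.

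The opposite pattern appeared 9926 bp beyond region 11. Region 12 of the Per1 window (chr11:68923735-68924693) was called in 1 fasted library, replicate 2, at a density of 9.28, against 23.5, 28.5 and 24.7 in fed livers. The single fasted value lies below all fed ones, and it comes from the deepest library of the series. Fasted replicates 1 and 3 have no call there, so their densities are unknown, and the region was not in the test. For scale, the 5th percentile of all called densities was 4.54 in both of these libraries. Within the Per1 window the lowest called density was higher, at 18.7 in fasted replicate 1 and 11.2 in fasted replicate 3. Regions called in all fed libraries and 1 fasted library made up 1.90% of all regions of the series, and the reverse pattern also 1.90%.

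Further along, region 13 (chr11:68927836-68928831) had densities of 38.9, 25.9 and 43.9 in fasted livers, against 34.6, 22.9 and 25.2 in fed livers. The groups overlapped, and the log2 fold change of 0.44 did not pass (SE 0.20, limma adjusted p = 0.151). It passed without fasted replicate 2, at 0.60 (limma adjusted p = 0.0409). At region 16 (chr11:68936725-68939210) fasted livers had 40.6, 39.5 and 42.1, against 48.9, 53.6 and 47.6 in fed livers. These groups did not overlap, yet the log2 fold change of -0.22 did not pass (SE 0.16, limma adjusted p = 0.428).

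The remaining shared members of the Per1 window lie on both sides of this stretch. Regions 1, 2, 4 and 5, before it, had densities between 31.5 and 84.5 in fasted livers and between 43.8 and 100.04 in fed livers. Regions 14 and 15 had 16.3 to 29.7 in fasted livers and 15.1 to 32.6 in fed livers. None of these passed the test, with log2 fold changes from -0.15 to 0.10, and on the centred scale each overlapped between the groups. At region 2 the deposited densities did not overlap, with 83.4, 68.1 and 77.8 in fasted livers, against 89.0, 91.8 and 86.3 in fed livers. Region 3 was called in all fasted libraries, at 20.1, 16.2 and 21.8, and in fed replicates 1 and 3, at 18.8 and 12.8. Regions 6, 7 and 8 were each called in a single fasted library, at 11.2, 11.1 and 11.2.

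The window given for Per2, the partner of Per1 in the repressor complex, was the sparsest, with 3 shared members. That these regions belong to the Per2 gene was not checked. The strongest, region 3 (chr1:91350529-91352657), had densities of 47.1, 47.8 and 38.1 in fasted livers, against 38.98, 53.96 and 40.1 in fed livers. The groups overlapped and the log2 fold change was 0.08 (95% interval -0.31 to 0.48, limma adjusted p = 0.837). Region 4 (chr1:91352826-91353941), only 168 bp away, had 28.4, 18.7 and 29.97 in fasted livers, against 44.5, 33.3 and 39.1 in fed livers. Every fasted library stood below every fed one. Its log2 fold change of -0.53 (SE 0.19, 95% interval -0.93 to -0.13) had the greatest size of all shared members but did not pass (limma adjusted p = 0.0665). It passed when only the upper 50% of regions by density were tested and used for centring, at -0.61 (limma adjusted p = 0.0354).

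Region 7 of the Per2 window (chr1:91392516-91393389) had 42.6, 38.9 and 45.7 in fasted livers, against 43.03, 31.1 and 29.5 in fed livers. Deposited densities overlapped here, and centred ones did not. The log2 fold change of 0.38 did not pass (SE 0.18, limma adjusted p = 0.175). Regions 5 and 6 were weak, with densities between 6.62 and 10.5 in the libraries that called them, and both lacked a call in fasted replicate 1. Regions 1 and 2 were called once each, at 3.75 in fasted replicate 2 and at 4.35 in fed replicate 3, the deepest library of each group.

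Dbp, the output activator, had 4 shared members in its window, and none passed the test. The strongest, region 3 (chr7:52959099-52961012), stood at percentile 97.7 of density. It had 128, 116 and 141 in fasted livers, against 187, 152 and 134 in fed livers, so fasted replicate 3 lay above fed replicate 3. Deposited densities thus overlapped, and centred ones did not. Means were 128 ± 12.3 in fasted and 158 ± 26.9 in fed livers (SD, n = 3 each), with a log2 fold change of -0.22 (SE 0.12, 95% interval -0.47 to 0.04, limma adjusted p = 0.273).

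The other 3 shared members of the Dbp window had fold changes above 0. Region 4 (chr7:52961888-52964475), 875 bp beyond region 3, had 60.1, 60.4 and 82.03 in fasted livers, against 51.9, 56.95 and 56.1 in fed livers. All fasted libraries stood above all fed ones, but the log2 fold change of 0.35 did not pass (SE 0.16, limma adjusted p = 0.151). With average density it was 0.49 and passed (limma adjusted p = 0.0499). Region 6 (chr7:52967447-52971258), the widest member at 3812 bp and built from 1 to 3 hotspots per library, had 89.9, 91.96 and 104 in fasted livers, against 99.3, 81.3 and 81.2 in fed livers. The groups overlapped and the log2 fold change was 0.20 (SE 0.14, limma adjusted p = 0.373). Region 7 (chr7:52972851-52974111) had 66.95, 67.5 and 82.3 in fasted livers, against 54.8, 66.3 and 62.3 in fed livers. These groups did not overlap, and the log2 fold change of 0.31 did not pass (SE 0.15, limma adjusted p = 0.204). Regions 1, 2 and 5 were called in 1 or 2 libraries each, at densities between 6.31 and 11.1.

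Nr1d1 encodes the repressor arm of the loop that responds to heme, and its window held 8 shared members, none of which passed the test. The strongest, region 6 (chr11:98636130-98637329), had 119, 101 and 166 in fasted livers, against 123, 119.5 and 131 in fed livers. On deposited densities fasted replicate 3 lay above the fed range, and the other fasted replicates lay below it, replicate 1 only just (119.2 against 119.5). On the centred scale fasted replicate 1 lay within the fed range. The log2 fold change was 0.09 (95% interval -0.20 to 0.38, limma adjusted p = 0.739). Region 5 (chr11:98634769-98635954), 175 bp before it, had 106, 112 and 150.1 in fasted livers, against 134, 126 and 119 in fed livers, with a log2 fold change of 0.02 (95% interval -0.25 to 0.29, limma adjusted p = 0.951). At both regions fasted replicate 3 was the highest of the 6 libraries.

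Region 3 of the Nr1d1 window (chr11:98615871-98616750) had 31.5, 29.2 and 36.3 in fasted livers, against 33.1, 24.4 and 22.4 in fed livers. Deposited densities overlapped, centred ones did not, and the log2 fold change of 0.36 did not pass (SE 0.19, limma adjusted p = 0.231). The other 5 shared members, regions 1, 7, 8, 9 and 11, had log2 fold changes from -0.12 to 0.10. Their densities ran from 19.98 to 79.9 in fasted livers and from 18.7 to 83.9 in fed livers, and each of the 5 overlapped between the groups.

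A single member was called in all libraries of 1 group and in none of the other. Region 10 of the Nr1d1 window (chr11:98651502-98652376) was called in no fasted library, against densities of 11.03, 15.4 and 10.8 in fed livers, heights of 30, 41 and 47 tags if 1 step of density is 1 tag. It lies 168 bp beyond region 9, which was called in every library. Of all regions of the series, 1.57% were called in all fed and no fasted libraries, and 1.17% in all fasted and no fed libraries. A missing call gives no density, so no fold change can be given. No member was called in all fasted and no fed libraries.

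**Figure D4:**
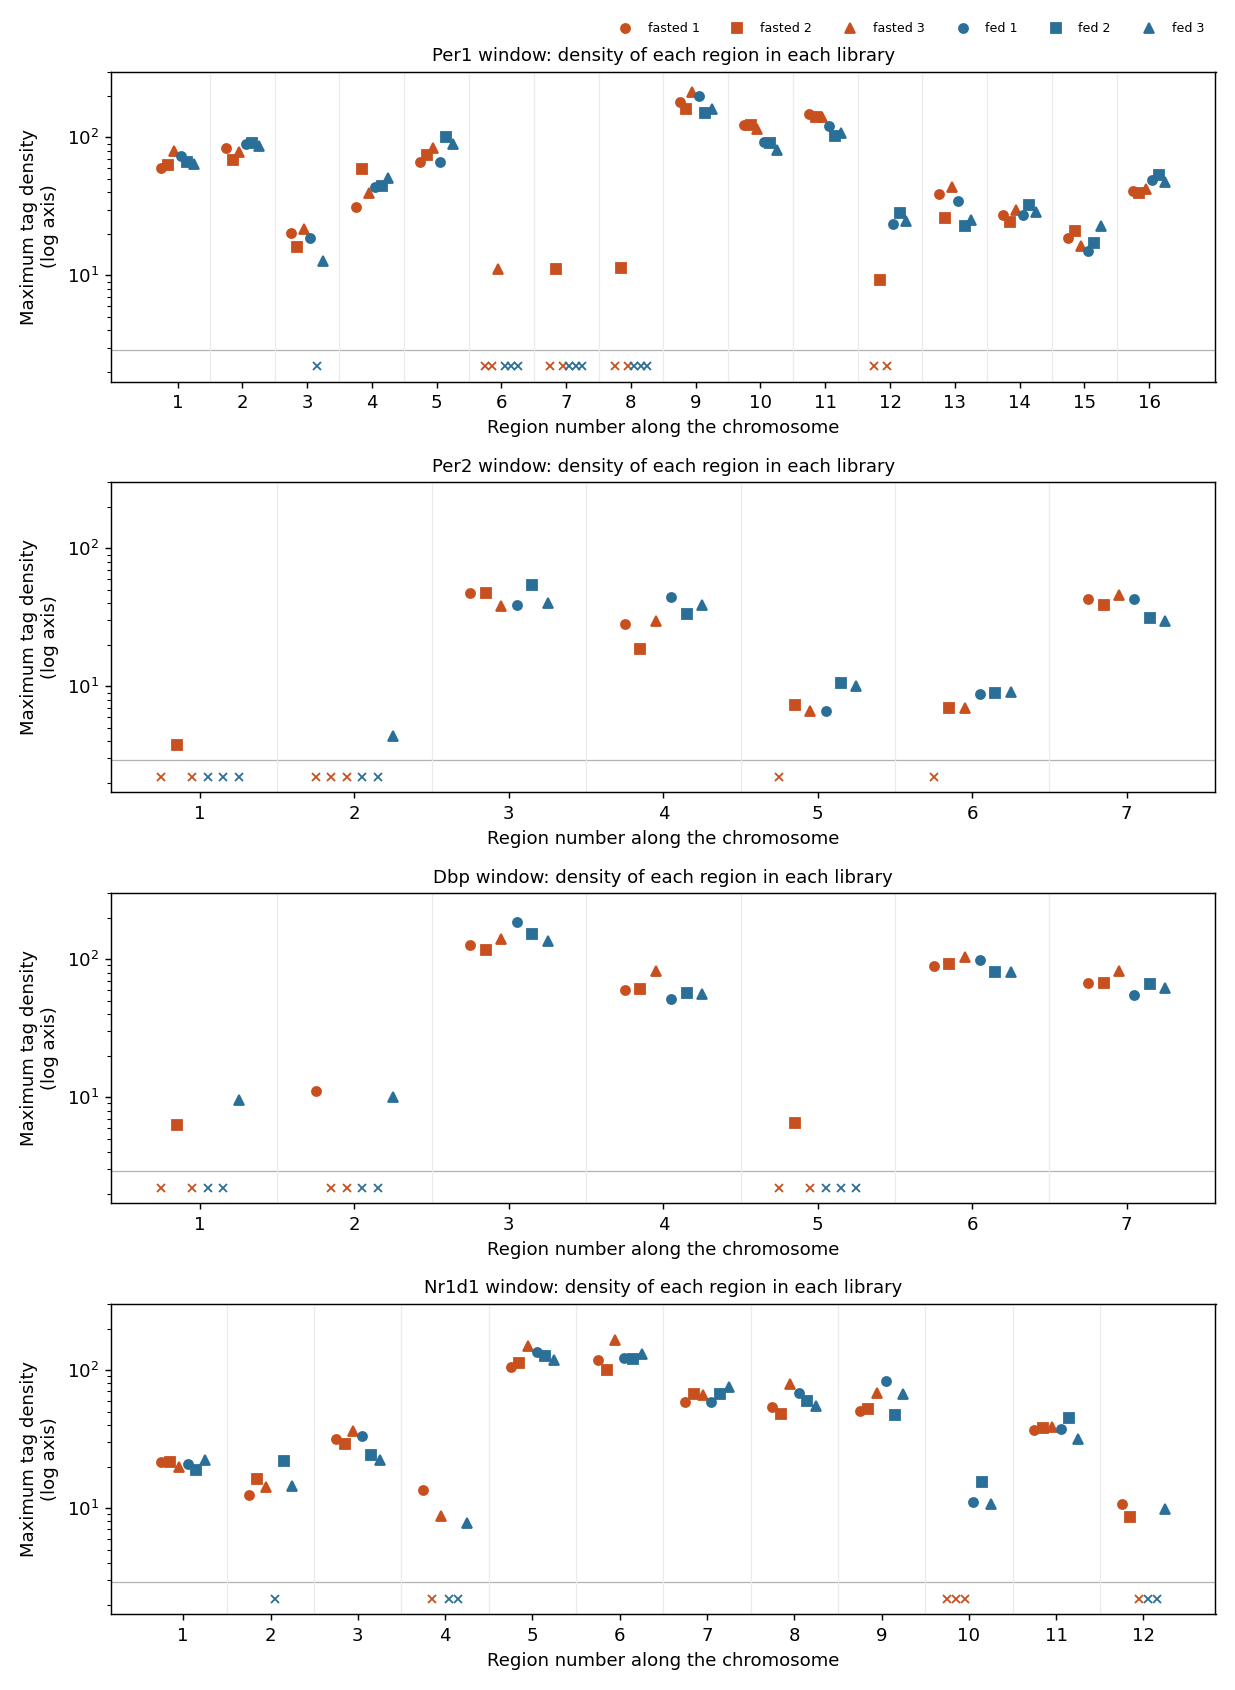
Maximum tag density (vertical log axis) of all 42 regions in each fasted and fed library, 1 panel per window, with crosses under the grey line for a library that did not call the region. Most regions show both groups at like heights, and Per1 region 12 and Nr1d1 region 10 show crosses in fasted libraries beside calls in all fed libraries.

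The 16 members missing from at least 1 library were weak, at densities of 3.75 to 28.5 where called. Of the 42 members 6 were called in a single library, as were 19.5% of all regions. Of these 6, 4 were called in fasted replicate 2 and 1 in fed replicate 3, the deepest libraries. The remaining member, Per1 region 6, was called in fasted replicate 3. Region 4 of the Nr1d1 window was called in fasted replicates 1 and 3 but not in fasted replicate 2, the deepest library. The part of depth in the missing calls was not tested. Region 2 of the Nr1d1 window lacked a call in fed replicate 1 only, at 12.5, 16.2 and 14.2 in fasted livers, against 22.1 and 14.4 in the fed libraries that called it. Regions 4 and 12 of that window were each called in 2 fasted libraries and 1 fed library, at 7.78 to 13.6.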

How the data were processed

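Per the labels, DNase I was used at 40 U/ml on liver nuclei and DNA of 100 to 500 bp was kept. CASAVA 1.8 and mm9 come from the submitters' processing notes. The aligner and the software that called hotspots were not given in the sources used here. Hotspots were called separately in each library. The deposited maximum and average tag densities, so named in the file headers, are a coverage signal of unstated scale. The z-score is a score that the authors deposited for each hotspot, and neither it nor the deposited p-value entered a comparison. Within each library all maxima were whole multiples of 1 step (within 0.05 step), which gives relative depth if 1 step is 1 tag. On that reading shared members stood 41 to 814 tags high.

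Hotspots of chromosomes 1 to 19 and X were merged. The main test was limma 3.58.1 in R 4.3.3 (eBayes, with trend) over regions that every library called, on log2(density + 1) centred per library, with Benjamini-Hochberg adjustment over all shared regions and a threshold of 0.05. The step was also run on simulated data with known changes. These were drawn as independent normal noise with the spreads of this same fit, so they cannot show whether its assumptions hold here. Python 3.11.15, pandas 2.3.3 and matplotlib 3.10.9 made tables and plots. Described in full are the strongest region of each window, those past the threshold and those called in 1 group only. Others with a fold change in the text (Per1 regions 13 and 16, Per2 regions 4 and 7, Dbp regions 4, 6 and 7, and Nr1d1 regions 3 and 5), and Per1 region 12, were chosen after their values were seen. Members and lists were chosen with earlier results of these data known. If 1 step is 1 tag and heights vary as counts do, no 2 replicates of a group agreed within sampling noise (the mean squared z of their heights was 2.18 to 5.82). The sampling noise of such heights was not itself measured. Heights are overlapping tags and not counts per region, so no count model was used in the test. Promoters are RefSeq sequences (GRCm38.p6).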

Additional observations from a re-analysis of the deposited data

How the results depend on the processing

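The fit was repeated under 20 other settings. Of 295 values for the 15 members whose fold change is given, 273 kept direction and side of the threshold, 9 lost the call, 3 gained it and 10 reversed. All 9 losses were at Per1 regions 10 and 11, the only members with a call to lose, so the 295 understate how often the calls were lost. The count of members higher in fasted livers, 2, was 1 with quantile normalization, no centring, missing values at the lowest density, average density, hotspots covering at least 50% of a region, or 1 hotspot of each library, 0 without the mean-variance trend, and 1 to 3 on leaving out each replicate (1 without fasted replicate 1 and without fed replicate 2). With average density the 1 member was Dbp region 4 (limma adjusted p = 0.0499), and neither Per1 region 10 nor Per1 region 11 passed. Per1 region 11 was not in the fits with hotspots covering at least 50% of a region or with 1 hotspot of each library. No member was lower in the main fit. With missing values at the lowest density 2 were (Per1 region 12 and Nr1d1 region 10), a setting that fixes their direction, and in the upper 50% by density 1 was. On leaving out each replicate 0 were lower. Over all shared regions 2921 were higher and 2905 lower. The higher count was 1946 with no centring, and the upper 50% by density gave 1401 higher and 1540 lower, with fewer regions tested and each library centred on those regions alone. Fits that left out 1 library each found 1911 (the one lacking fasted replicate 1) to 3199 higher regions, and 2048 to 2698 lower ones. Reversals were among values near 0. Per2 region 3 gave a log2 fold change of -0.0009 in the upper 50% by density, and -0.034 to 0.24 on leaving out each replicate (below 0 without fasted replicate 2 or fed replicate 1). Nr1d1 region 5 gave -0.053 with no centring, -0.113 with quantile normalization, -0.063 in the upper 50% by density, and -0.082 to 0.12 on leaving out each replicate (below 0 without fasted replicate 3 or fed replicate 3). Nr1d1 region 6 gave -0.039 with quantile normalization, and -0.060 to 0.19 on leaving out each replicate (below 0 without fasted replicate 3). The cause was not tested. The adjusted p (limma) ranged over these settings from 0.00869 to 0.148 for Per1 region 10 and from 0.0152 to 0.0928 for Per1 region 11. The 1 member called in all fed and no fasted libraries became 0 with hotspots covering at least 50% of a region, and 1 to 2 on leaving out each replicate (2 without fasted replicate 2, where Per1 region 12 joined it). No member was called in all fasted and no fed libraries under any of these rules (0 to 0 on leaving out each replicate). Deviations from the group means correlated at -0.067, -0.030 and -0.167 between libraries of the same number, and at -0.067 to 0.141 between the other pairs. These values cannot show whether fasted and fed libraries of the same number were paired, and the labels do not say so. The replicate block left 2 members higher and 0 lower, with 2535 higher and 2539 lower over all shared regions.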
